A study of Mus musculus with 2 samples.

Results

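The transcripts described here are the constant regions of mouse immunoglobulin chains and the J chain: the kappa light chain (Igkc), the heavy chains of IgM (Ighm), IgA (Igha) and the IgG subclasses (Ighg1, Ighg2b, Ighg2c, Ighg3), and Jchain. These 8 genes of the 32285 in the files were selected on their levels in these same libraries, so their difference between genotypes is a description and not a test of anything. The cells come from the brains of male mice of 23 weeks, either homozygous for the Disc1 locus impairment allele (Disc1 LI/LI) or wild-type littermates (Disc1 WT/WT), with 6 mice pooled per genotype and 1 droplet library per pool. The allele is constitutive, so that every cell of the Disc1 LI/LI mice carries it, and all samples were dissociated in the presence of actinomycin D, an inhibitor of transcription, and sorted for low CD45 and for CD11b. CD45 is found on all leukocytes and CD11b on myeloid cells, and the labels call the sorted cells microglia. No replicate library exists, so no p-value is given, and every interval covers counting error only.

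An antibody joins 2 copies of a heavy chain to 2 copies of a light chain. Each chain is encoded by a rearranged variable (V) segment and a constant segment. A B cell first places IgM and IgD on its surface, and after activation it can replace the Ighm constant segment with one of Ighg3, Ighg1, Ighg2b, Ighg2c, Ighe or Igha, a step called class switching. A plasma cell, the end stage of this lineage, turns much of its mRNA over to antibody chains for secretion. The J chain links antibody units into the polymers of IgM and IgA. In the brain, plasma cells are known mainly from the meninges and other borders, and the tissue itself is held to contain few.

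In mm10 (GRCm38), 6 of the 8 genes lie side by side on the minus strand of chromosome 12, with their constant exons in the order of the switch. Ighm spans 113418558 to 113422730, Ighg3 113356224 to 113361232, Ighg1 113325240 to 113330523, Ighg2b 113302965 to 113307933, Ighg2c 113285325 to 113288932 and Igha 113254830 to 113260236. Igkc is on the plus strand of chromosome 6, from 70726435 to 70726966, inside the long non-coding gene Gm30211 on the same strand. How reads shared by these overlapping genes were counted was not tested. Jchain is on the minus strand of chromosome 5, from 88519809 to 88527891.

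The heavy chains differ at their ends, and the following stretches show where the J chain can attach. They are the last coding bases of the secreted Ighm and Igha mRNAs, read 5′ to 3′ from GENCODE vM21, from the point where the membrane form leaves the exon. The capitals mark the cysteine codon next to the end, known as the residue through which IgM and IgA units bind each other and the J chain. The same interval is 59 bases in both genes, and it is 5 bases with 0 cysteine codons in each of the 4 IgG genes.
Ighm tail, chr12:113420870-113420928, minus strand: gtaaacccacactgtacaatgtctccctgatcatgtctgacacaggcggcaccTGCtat
Igha tail, chr12:113258771-113258829, minus strand: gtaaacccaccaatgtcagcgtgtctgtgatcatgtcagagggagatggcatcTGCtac

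The IgG subclasses are told apart most readily by the hinge exon, which joins the antigen-binding arms to the stem of the antibody. It is shown because 3 of the 4 subclasses appeared below in cells that carried almost nothing of the others. The capitals mark in-frame cysteine codons, which can form bonds between antibody chains.
Ighg1 hinge, chr12:113329844-113329882, minus strand: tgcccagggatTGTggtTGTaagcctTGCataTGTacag
Ighg2b hinge, chr12:113307261-113307326, minus strand: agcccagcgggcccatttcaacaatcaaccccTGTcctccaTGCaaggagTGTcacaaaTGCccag
Ighg2c hinge, chr12:113288263-113288325, minus strand: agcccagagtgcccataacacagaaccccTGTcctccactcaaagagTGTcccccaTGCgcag
Ighg3 hinge, chr12:113360529-113360576, minus strand: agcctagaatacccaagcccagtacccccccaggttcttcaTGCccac
These exons hold 4, 4, 3 and 1 cysteine codons in the order shown. Over the secreted coding sequence, the closest pair was Ighg2b and Ighg2c with 86.3% identical bases, and the other 5 pairs shared 76.1% to 78.5%. The counts come from the 3′ end of the mRNA, where the last 300 bases of Ighg2b and Ighg2c were 83.9% identical, so a small count of 1 subclass beside a large count of another is uncertain. Secreted and membrane forms of a gene are counted together.

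After barcodes with fewer than 200 genes or with more than 10% mitochondrial UMIs were left out, the Disc1 WT/WT library kept 7032 cells and the Disc1 LI/LI library 7817, with 33591758 and 47689834 UMIs and medians of 4234.5 and 4566 UMIs per cell. A UMI marks 1 captured mRNA molecule. Disc1 itself had 642 and 22 UMIs, or 19.1 and 0.461 CPM, the UMIs of a gene per 1000000 UMIs of the library or of the cells named. The libraries differed widely in makeup. Cells in which P2ry12, Gpr34, Tmem119, Siglech, Fcrls and Olfml3 made up at least 0.5% of UMIs, called the microglia gate, were 88.1% and 25.7% of cells. Cells with at least 3% of UMIs from S100a8 and S100a9, the neutrophil gate, were 1.65% and 46.3%, and 11 and 57 cells passed both. The 2 libraries had 12 kept barcodes in common.

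Summed over all cells of a library, 7 of the 8 genes were at least 2-fold higher in Disc1 LI/LI, against 13.8% of the 15044 genes with at least 10 UMIs in all cells of both libraries that were higher by this size and 41.9% that were lower. Since these values chose the genes, nothing is read from that count. Igkc had 967 UMIs in Disc1 WT/WT, or 28.8 CPM (95% exact Poisson interval 27.0 to 30.7), against 127255 UMIs, or 2668 CPM (2654 to 2683), in Disc1 LI/LI. Ighm had 6653 UMIs, or 198 CPM, and 13315 UMIs, or 279 CPM, a log2 ratio of 0.50 (0.45 to 0.54). Ighm was thus the leading member in Disc1 WT/WT and Igkc in Disc1 LI/LI.

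The class-switched heavy chains and the J chain were close to 0 in Disc1 WT/WT. Igha had 3 UMIs there, all in 1 cell, and 8315 UMIs in Disc1 LI/LI. Jchain had 5 UMIs against 7630, and Ighg2b had 8 against 6935. Ighg1 had 0 against 5650 UMIs, which makes it at least 1327-fold higher as a level when the 0 is set to 3 counts for the library. Ighg2c had 0 against 173 UMIs and Ighg3 had 0 against 11, at least 40.6-fold and 2.58-fold higher by the same floor. Of the 8 genes, Ighg3 was the least abundant in Disc1 LI/LI, and 8 of its 11 UMIs were in 1 cell that held 6711 Ighg2b UMIs. The plot of the levels by cell class shows these values beside those of the gated cells.

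**Figure D1:**
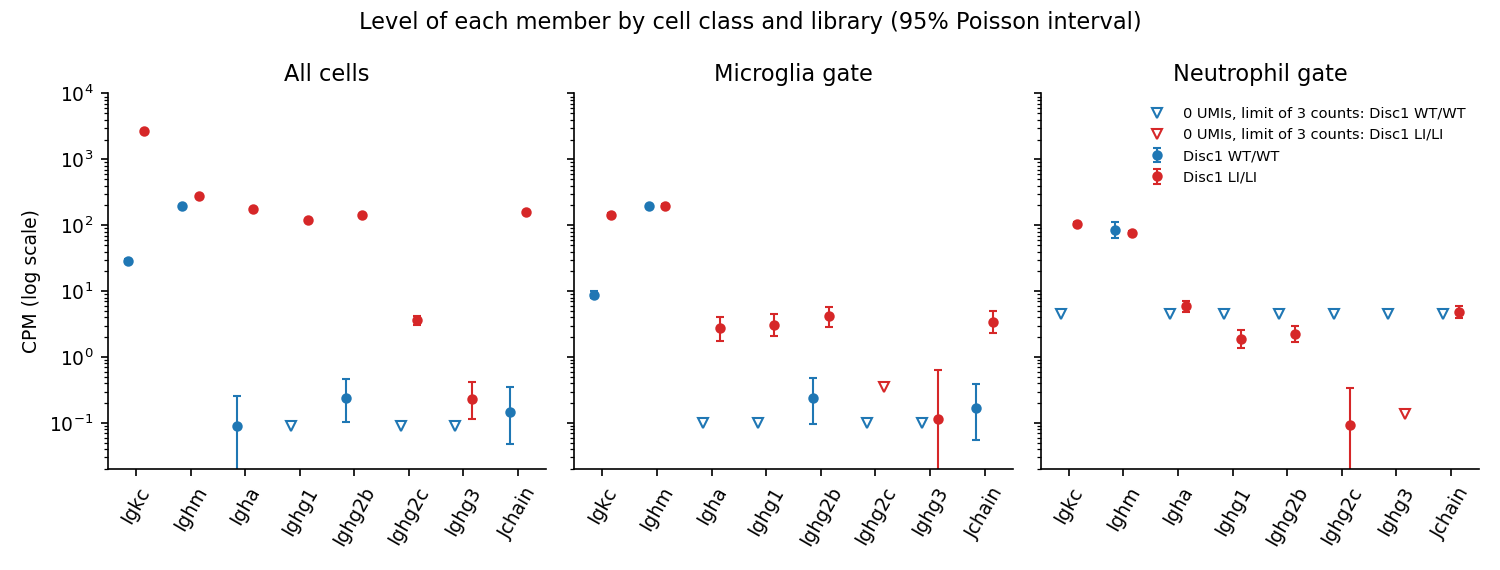
Level of each of the 8 genes in CPM (log scale) in all cells, the microglia gate and the neutrophil gate, for 1 library per genotype, with 95% exact Poisson intervals as bars. Open triangles mark genes with 0 UMIs at the limit of 3 counts. Ighm lies at nearly the same level in both libraries in the microglia gate (199 and 198 CPM), while Igkc lies at 8.91 and 144 CPM.

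The Disc1 LI/LI excess was held by few cells. A cell was called secreting if the 8 genes made up at least 5% of its UMIs. The name stands for this rule and not for a cell type. By this rule 14 of 7817 Disc1 LI/LI cells, or 0.179% (exact binomial interval 0.0979 to 0.300), were secreting. In Disc1 WT/WT it was 0 of 7032 cells, for which 3 counts give a limit of 0.0427% and the exact binomial interval reaches 0.0524%. The lowest share inside the threshold was 5.13%, and the highest outside it was 3.65% in Disc1 LI/LI and 3.72% in Disc1 WT/WT. These 14 cells held 149932 of the library's 169284 UMIs of the 8 genes, or 88.6%. They held 97.3% of Igha, 97.9% of Ighg1, 98.2% of Ighg2b, 98.3% of Ighg2c and 97.3% of Jchain, 91.9% of Igkc, and 37.6% of Ighm. None of the 14 passed the microglia or the neutrophil gate. They had 0 UMIs of Itgam, which encodes CD11b, and 4 of Ptprc, which encodes CD45, although the sort selected for both proteins. By comparison Itgam stood at 521 CPM in cells that passed the microglia gate alone in the same library. The shares of secreting cells are therefore shares of sorted cells and not of the brain.

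**Figure D2:**
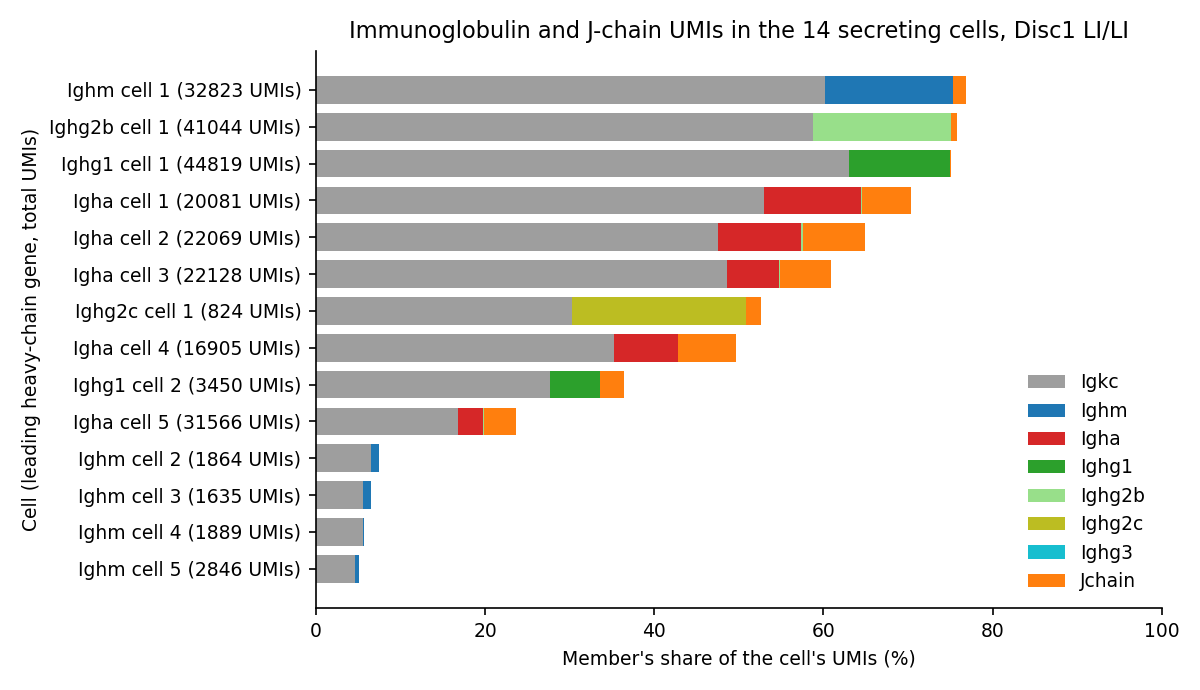
Share of each cell's UMIs (%) taken by each of the 8 genes in the 14 secreting cells of the Disc1 LI/LI library, 1 bar per cell, named by the leading heavy-chain gene with the cell's total UMIs. In 10 cells the genes reach 23.6% to 76.8% with 1 heavy chain each, and in 4 cells they reach 5.13% to 7.40% without Jchain.

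The 14 cells fell into 2 sets with a gap between 7.40% and 23.6% of UMIs. In the 10 upper cells the 8 genes made up 63.4% of all UMIs. These cells had UMIs of 3 to 10 of the 10 plasma cell markers (median 8.5), led by Mzb1 and Xbp1, and can be called plasma-cell-like. A pair of cells among them rested on 3 plasma markers, the Ighg2c cell and 1 Ighg1 cell. The 10 cells also had UMIs of 0 to 8 of 10 B-cell markers (median 3), and the Ighg2b cell had 8 of these beside 6 plasma markers. In the other 4 cells, 0 to 2 plasma markers and 5 to 7 of 10 B-cell markers were detected, Jchain was 0, Ighm was the leading heavy chain with 4 to 16 UMIs, and Cd79a, a signalling subunit of the B-cell receptor, had 12 to 23 UMIs. Those 4 had 1635 to 2846 UMIs per cell in total and can be called B-cell-like. The 10 upper cells had a median of 22098.5 UMIs, so the numbers of markers detected in the 2 sets are not at equal depth.

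Each plasma-cell-like cell was given over to 1 heavy chain. Igha led in 5 cells, Ighg1 in 2, and Ighm, Ighg2b and Ighg2c in 1 each. The leading gene took 96.3% to 100% of the UMIs of all heavy-chain constant genes, Ighd included, and in 5 of the 10 cells it took 100%. The Ighm cell had 4951 Ighm, 19758 Igkc and 503 Jchain UMIs and 0 of any other heavy chain. The Ighg2b cell had 6711 Ighg2b UMIs beside 9 of Ighm, 8 of Ighg3, 3 of Ighd, 1 of Igha and 1 of Ighg1. The first Ighg1 cell had 5323 Ighg1 UMIs of 44819 in total, the most UMIs of the 10 cells. The second had 207 of 3450. The 5 Igha cells had 2311, 2170, 1371, 1290 and 948 Igha UMIs, with 0 to 39 of Ighg2b as the other heavy chain. The Ighg2c cell had 170 Ighg2c and 249 Igkc UMIs but only 824 UMIs and 241 genes in all, close to the limit of 200 genes, and 4.49% mitochondrial UMIs, the highest of the 14 cells.

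The light chain was kappa in all 10, but the rule counted Igkc and no lambda gene, so it favoured such cells. Igkc took 96.2% to 99.9% of the UMIs of Igkc and the lambda genes Iglc1, Iglc2 and Iglc3. The lowest value belonged to the third Igha cell, with 424 lambda against 10748 Igkc UMIs. No gene for a lambda constant region led in any of them, although Iglv1, a lambda variable gene, had 370 UMIs in the first Ighg1 cell, more than the 32 of its leading kappa variable gene Igkv2-137.

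Relative to heavy-chain UMIs, Jchain was higher in the Igha cells than in the others. Per UMI of heavy-chain constant genes, the 5 Igha cells had 0.508, 0.741, 0.966, 0.902 and 1.21 Jchain UMIs. The Ighm cell had 0.102, the Ighg2b cell 0.0380 and the Ighg2c cell 0.0882. The 2 Ighg1 cells stood apart from each other, with 0.00827 in the larger and 0.473 in the smaller. All 5 Igha cells thus lay above all 5 cells of the other classes, and the smaller Ighg1 cell, at 98 Jchain UMIs, came nearest. As a share of the cell's UMIs, Jchain took 3.77% to 7.41% in Igha cells and 0.0982% to 2.84% in the others. Per 1000 UMIs outside the 8 genes the classes overlapped, at 49.4 to 212 in Igha cells and 3.93 to 66.1 in the others. By this measure the fifth Igha cell (49.4) lay below the Ighm cell (66.1). UMIs count molecules, so these ratios between genes do not depend on mRNA length, but the 3′ ends of the genes may be captured unequally. The secreting cells were chosen on these genes, and no test of these differences was made.

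The variable genes, which the rule did not use, also sorted by cell. Of 183 Ighv and 160 Igkv genes in the files, each plasma-cell-like cell had 1 leading pair. The Ighm cell held Ighv11-2 with 52 of 52 Ighv UMIs and Igkv14-126 with 191 of 191 Igkv UMIs, a pair known from B-1 cells that bind phosphatidylcholine. The first and second Igha cells held the same pair, Ighv1-82 with 12 and 21 UMIs and Igkv3-5 with 53 and 94. The third Igha cell also led with Ighv1-82, at 4 UMIs, but with Igkv3-7 at 46. The Ighg2c cell and the fourth Igha cell held Ighv2-5, with 3 and 25 UMIs, and Igkv5-43, with 14 and 242. The Ighg2c cell had 0 Igha UMIs and the fourth Igha cell had 0 Ighg2c UMIs. Whether cells with the same pair come from 1 clone was not tested, because the 3′ counts hold no junction sequence. The leading pairs of the other cells were Ighv1-53 with Igkv2-137 in the first Ighg1 cell and Ighv5-9 with Igkv17-127 in the Ighg2b cell. The fifth Igha cell had Ighv1-26 with Igkv10-94, and the smaller Ighg1 cell had Ighv1-59 with Igkv8-30, at 1 and 2 UMIs. The first Ighg1 cell also held the lambda gene Iglv1, with 370 UMIs against 32 of Igkv2-137.

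The machinery that goes with antibody secretion was present in the same cells. Compared with B-like cells of the same library and scaled to the UMIs outside the 8 genes, 20 of 22 plasma and secretory genes were at least 2-fold higher and 0 at least 2-fold lower in the 10 plasma-cell-like cells, with a median log2 ratio of 4.28. Among all 6675 genes with at least 10 UMIs in these 2 sets, 11.5% were higher by this size, 19.7% were lower, and the median log2 ratio was -0.22. The B-like cells here are the 149 that had at least 3 of 10 B-cell markers and passed no other gate. Xbp1, the transcription factor of the secretory program, was 34.8-fold higher (235 against 56 UMIs), and Mzb1, a chaperone for IgM and IgA, was 20.0-fold higher (686 against 284). Hsp90b1, Ssr4 and Sec11c, which fold, translocate and trim proteins in the endoplasmic reticulum, were 12.4-fold, 14.5-fold and 11.4-fold higher. Tnfrsf13b and Pou2af1 were the 2 genes short of 2-fold, at 1.21-fold and 1.91-fold. The cells were chosen on secretion, and plasma markers also named them, so these ratios describe the cells and are not independent evidence of their identity.

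Genes of the B-cell surface and identity went the other way, in a comparison with cells that were chosen for B-cell markers, 10 of which are among these genes. Of 15 genes, 11 were at least 2-fold lower in the plasma-cell-like cells and 0 at least 2-fold higher, with a median log2 ratio of -2.08 with 0.5 counts added. Ms4a1, which encodes CD20, had 6 UMIs against 439, and Ebf1, an early B-cell transcription factor, had 7 against 1227. Cd79a had 92 UMIs and remained at 0.398-fold, Ly6d had 170 at 0.821-fold, and Fcrla had 29 at 1.02-fold. The choice of the B-like cells by these markers favours this direction, so the counts are a description. Blk, Cr2 and Spib were at 0 in the 10 cells, where 3 counts amount to 34.8 CPM. The surrogate light chain genes Vpreb1 and Igll1 and the recombination genes Rag1, Rag2 and Dntt, which act before a B cell has its receptor, all had 0 UMIs there. For Cr2, Rag1, Rag2 and Dntt the level in B-like cells lay under the limit of 3 counts, so a difference was not detectable. Among other constant genes, Ighd had 3 UMIs against 216, Iglc2 was 6.82-fold and Iglc1 2.16-fold higher, Iglc3 was 1.66-fold higher, and Iglc4 had 1 UMI. Ighe had 0 UMIs in both sets.

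**Figure D3:**
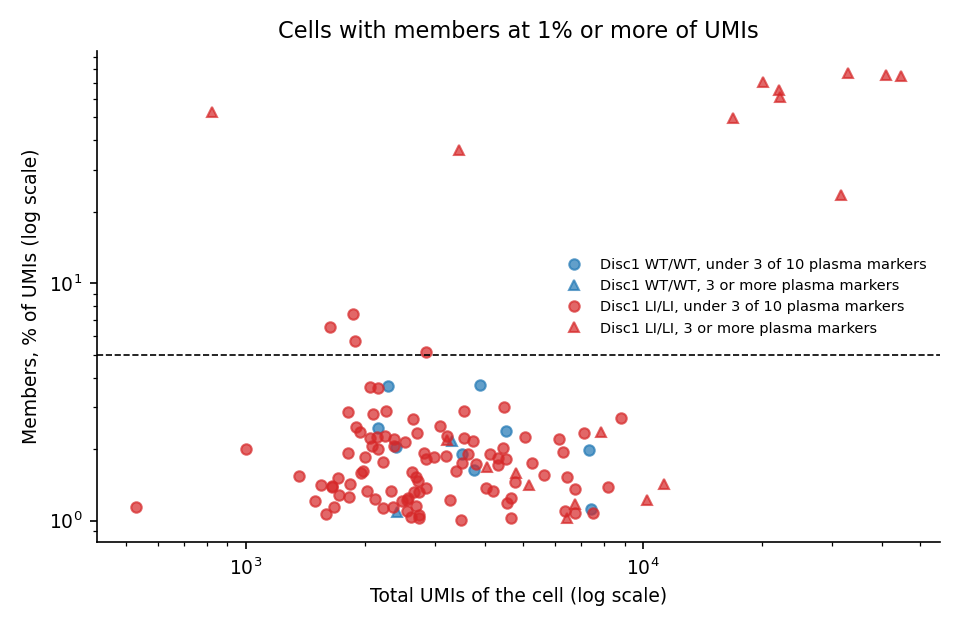
Share of UMIs from the 8 genes (%, log scale) against total UMIs (log scale) for every cell at 1% or more, coloured by library, with triangles for cells with at least 3 of 10 plasma markers and the dashed line at 5%. Of these cells 117 are Disc1 LI/LI and 11 Disc1 WT/WT. The plasma-cell-like cells lie above 20% because they were split there. Between 1% and 5%, triangles mark 9 Disc1 LI/LI and 2 Disc1 WT/WT cells.

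Below the threshold, cells rich in these genes carried B-cell markers in both libraries. Between 1% and 5% of UMIs there were 103 Disc1 LI/LI and 11 Disc1 WT/WT cells, of which 98 and 11 had at least 3 B-cell markers. At least 3 plasma markers were found in 9 and 2 of these cells. B-like cells that passed no other gate were 149 of 7817 in Disc1 LI/LI, or 1.91% (1.61 to 2.23), and 14 of 7032 in Disc1 WT/WT, or 0.199% (0.109 to 0.334). In these cells Ighm was detected in 144 and in 14, with medians of 8 and 9.5 UMIs. Igkc was detected in 144 and in 12, with medians of 26 and 41 UMIs. Ighd, which mature naive B cells express with Ighm, was detected in 85 and in 9. Jchain was detected in 3 and in 0. With at least 10 light-chain UMIs, 137 and 14 cells could be assessed for a light chain. With at least 90% of these UMIs from 1 type, 50 Disc1 LI/LI cells were kappa and 8 lambda, and 4 Disc1 WT/WT cells were kappa and 3 lambda. The other assessed cells, the larger part in Disc1 LI/LI, had less than 90% of either type and were not assigned. At least 3 UMIs of Vpreb1 and Igll1 together, a sign of an earlier stage, were found in 4 and 0 cells. Itgam was detected in 29 of the 149 and in 2 of the 14.

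Outside these cells, the genes split into 2 patterns. To compare cell types, cells that passed exactly 1 gate were used: microglia, neutrophils, and cells with at least 3 markers of B cells, T cells, NK cells, monocytes or border macrophages. In Disc1 LI/LI, Igkc lay between 52.4 CPM in the monocyte gate and 81.1 in the border macrophage gate, with the microglia gate at 68.0 (62.4 to 74.1) and the neutrophil gate at 62.9 (59.5 to 66.6). Neighbours in the order of levels overlapped in their intervals, while the monocyte gate (48.5 to 56.5) lay below the microglia and neutrophil gates. A further gate of 10 erythroid cells stood higher, at 167 (95.5 to 271) from 16 UMIs. In Disc1 WT/WT the microglia gate stood at 0.914 CPM (0.597 to 1.34), and the highest of the same types was the T-cell gate at 4.77, which is 1 UMI. At least 1 Igkc UMI was found in 21.2% of Disc1 LI/LI microglia and in 24.1% of neutrophils, against 0.431% and 0% in Disc1 WT/WT, where the exact binomial interval for 0 of 103 neutrophils reaches 3.52%. Median depths were 3754 and 3979 UMIs in Disc1 LI/LI and 4253.5 and 4235 in Disc1 WT/WT. Monocytes were deeper, with a median of 7107.5 UMIs, and 35.7% of them had an Igkc UMI. Thinned to 1000 UMIs per cell, the Disc1 LI/LI shares were 6.17% (5.13 to 7.36) in microglia, 5.78% (5.02 to 6.61) in neutrophils and 5.29% (4.18 to 6.60) in monocytes. The share in microglia thus lay at that of cell types that should lack the gene, and no expression was read from it. In the microglia gate 1494 of 1896 cells had 0 Igkc UMIs, 354 had 1, 45 had 2, 2 had 3 to 9, and 1 had 77.

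**Figure D4:**
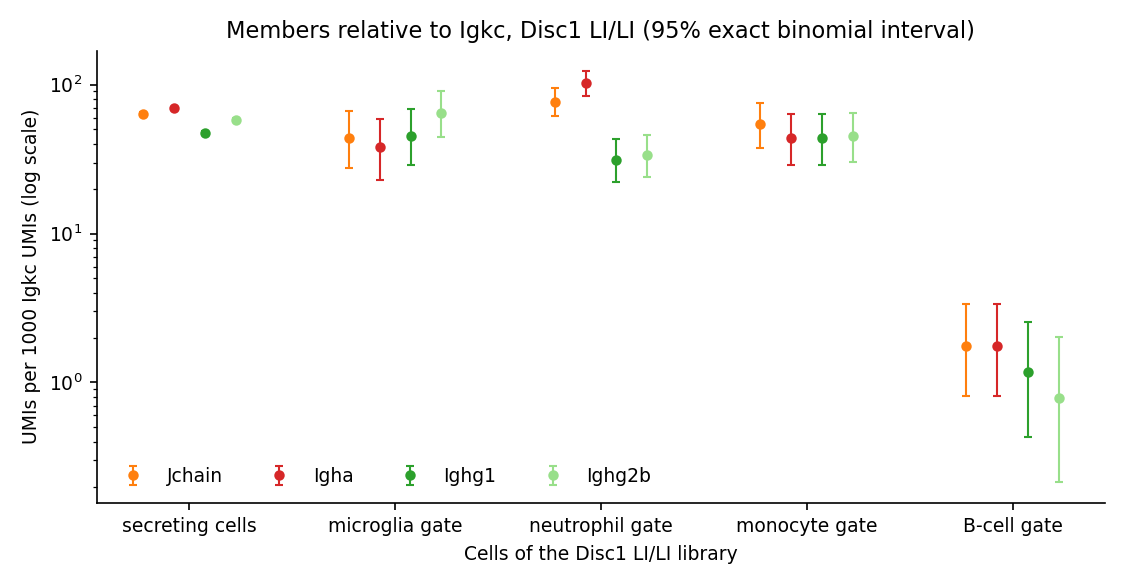
UMIs of Jchain, Igha, Ighg1 and Ighg2b per 1000 Igkc UMIs (log scale) in the Disc1 LI/LI library, in the secreting cells and in cells that passed exactly 1 marker gate, with 95% exact binomial intervals. In microglia, neutrophils and monocytes the ratios lie between 31.3 and 102, near those of the pooled secreting cells (47.3 to 69.2). In the B-cell gate they lie between 0.784 and 1.76, beside an Igkc level of 7059 CPM against 68.0 in microglia. Ighm is not shown.

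In Disc1 LI/LI microglia, neutrophils and monocytes, the switched heavy chains and Jchain stood to Igkc in proportions nearer to the pooled secreting cells than to B-like cells. In the pooled secreting cells there were 63.5 Jchain, 69.2 Igha, 47.3 Ighg1 and 58.3 Ighg2b UMIs per 1000 Igkc UMIs. In this pool 1 cell held 6711 of the 6810 Ighg2b UMIs, and another held 5323 of the 5531 Ighg1 UMIs. No single secreting cell had this mix of heavy chains. In Disc1 LI/LI monocytes the same ratios were 54.1, 43.5, 43.5 and 45.0, and in microglia 43.6, 38.0, 45.5 and 64.5. Neutrophils had 76.6, 102, 31.3 and 33.8, with Igha above the secreting cells and Ighg1 and Ighg2b below them. Few cells weighed on these values. In 3 neutrophils the 8 genes reached 1% of UMIs, and 1 of them held 108 Igkc and 39 Igha UMIs. Without the 3 cells the neutrophil ratios were 64.2, 73.6, 35.4 and 38.2, and the Ighg2b ratio (27.2 to 52.1) still lay below that of the secreting cells. In microglia 1 cell held 77 Igkc and 16 Ighg2b UMIs, and without it the Ighg2b ratio was 40.0. B-like cells had a different makeup, with 1.76 Jchain (0.806 to 3.35) and 1.76 Igha UMIs but 307 Ighm UMIs per 1000 of Igkc. For Ighm the other gates did not lie near the secreting cells, which had 42.9 UMIs per 1000 of Igkc. Neutrophils had 895, microglia 2624 and monocytes 3890. The low ratios of B-like cells stand beside an Igkc level of 7059 CPM, against 68.0 in microglia. As levels, their Jchain, Igha, Ighg1 and Ighg2b were 12.5, 12.5, 8.30 and 5.53 CPM, from few UMIs. In microglia these were 2.97, 2.58, 3.10 and 4.39 CPM. Cells that passed no gate had 39.1 Jchain, 78.2 Igha and 83.8 Ighg1 UMIs per 1000 of Igkc. Their Ighg2b ratio, from 1 UMI, was 5.59 (0.141 to 31.5), nearer to the 0.784 of B-like cells. In T cells, with 21 Igkc UMIs, Ighg1 and Ighg2b were 0, with intervals that reached 192. The Jchain ratio of monocytes was 54.1 (37.5 to 75.6), that of microglia without the 1 cell 31.1 (16.9 to 52.7) and that of neutrophils without the 3 cells 64.2 (49.6 to 82.0). Microglia of Disc1 WT/WT, a library with 0 secreting cells, had only 26 Igkc UMIs. Their ratios were 192 for Jchain (57.7 to 509) and 269 for Ighg2b (98.7 to 637), from 5 and 7 UMIs. For Igha and Ighg1 they were 0, with intervals that reached 152.

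Ighm had the second pattern. Its level in microglia was 198 CPM (193 to 203) in Disc1 WT/WT and 179 (169 to 188) in Disc1 LI/LI, intervals that did not overlap, and it was detected in 53.0% and 48.0% of these cells. Thinned to 1000 UMIs per cell, with 95 and 17 shallower cells left out, the shares were 18.3% (17.3 to 19.3) and 16.7% (15.1 to 18.5). Neutrophils were lower in both libraries, at 72.7 CPM (51.7 to 99.4) and 56.4 (53.1 to 59.8), with 28.2% and 21.8% of cells, and 4.90% and 5.55% after thinning. Monocytes stood at 177 and 204 CPM, T cells at 172 and 164, and border macrophages at 164 and 137, with intervals that overlapped between the libraries. NK cells stood at 41.8 (8.62 to 122) from 3 UMIs in Disc1 WT/WT and at 191 (137 to 258) in Disc1 LI/LI. The 10 erythroid cells of Disc1 LI/LI, which held 16 Igkc UMIs, had 0 of Ighm. Of 6653 Ighm UMIs in Disc1 WT/WT, 84.6% were in microglia and 2.90% in B-like cells, while 68.6% of the 967 Igkc UMIs were in the 14 B-like cells. The Ighm level was thus higher in microglia than in neutrophils of the same library, beyond counting error and after thinning, whereas the Igkc shares of these gates overlapped in Disc1 LI/LI after thinning.

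**Figure D5:**
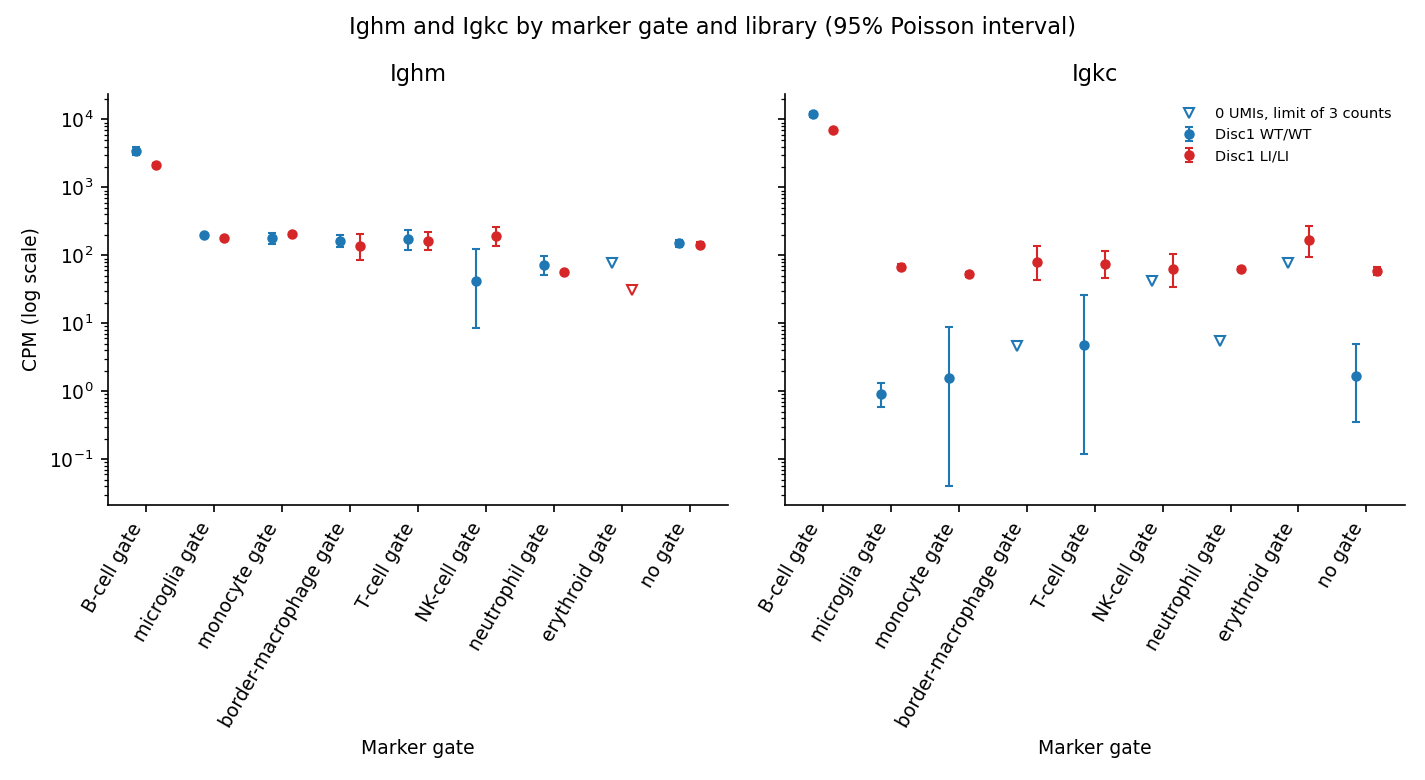
Ighm and Igkc in CPM (log scale) in cells that passed exactly 1 marker gate, for 1 library per genotype, with 95% exact Poisson intervals. Open triangles mark 0 UMIs at the limit of 3 counts. Ighm lies near 198 and 179 CPM in microglia of both libraries, lower in neutrophils, and at 204 CPM in Disc1 LI/LI monocytes. Igkc is higher in Disc1 LI/LI in each gate where Disc1 WT/WT has a UMI, apart from the B-cell gate (11862 and 7059 CPM).

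Few light-chain and no variable-gene UMIs accompanied Ighm in Disc1 WT/WT microglia. These cells had 5628 Ighm UMIs but 0 from 183 Ighv, 160 Igkv and 3 Iglv genes, 26 of Igkc and 0 of Rag1 and Rag2. Of the signalling subunits of the B-cell receptor, Cd79a had 6 UMIs in them and Cd79b 874, in 790 cells. In B-like cells of the same library, 193 Ighm UMIs came with 16 Ighv UMIs. Disc1 LI/LI microglia had 1383 Ighm UMIs, 527 of Igkc, 4 from Ighv genes, 19 of Cd79a and 307 of Cd79b. Most microglia with Ighm held few copies: in Disc1 WT/WT 1734 of 6036 had 1 UMI, 858 had 2, 605 had 3 to 9 and 0 had 10 or more. Of the 14 B-like cells, 7 had 10 or more. Ighd, transcribed from the same start as Ighm in B cells, had 195 UMIs in Disc1 WT/WT microglia, or 6.86 CPM (5.93 to 7.89), and 25 in Disc1 LI/LI, or 3.23 (2.09 to 4.76). Vpreb1 had 22 and 5 UMIs in these cells.

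Between the libraries, the gated cells differed far more in Igkc than in Ighm. In the whole microglia gate, which includes cells that pass further gates, Igkc went from 8.91 to 144 CPM, a log2 ratio of 4.01 (3.82 to 4.21). Ighm went from 199 to 198, a log2 ratio of -0.01 (-0.09 to 0.07). TMM, a scaling that sets the trimmed mean of gene ratios to 0, turned this to 0.13, and a gate at 0.25% of microglia markers to 0.08. With the gate at 1% the Ighm log2 ratio was -0.11, and without cells with at least 3 B-cell markers it was -0.16. Igha and Ighg1 had 0 UMIs against 24 and 27, at least 27.3-fold and 30.7-fold higher, or 4.77 and 4.94 on the log2 scale, bounds that were 2.35 and 2.83 after thinning. Ighg2b had 7 against 36 UMIs and Jchain 5 against 30, log2 ratios of 4.13 (2.94 to 5.54) and 4.35 (2.97 to 6.08). After thinning Ighg2b had 0 UMIs left in Disc1 WT/WT and a bound of 2.83, and Jchain stood at 2.61. Ighg2c had 0 UMIs in both libraries and Ighg3 0 and 1, so no ratio is given for them. In this gate 4.77% of 13223 genes were at least 2-fold higher and 5.81% at least 2-fold lower. Cells with at least 3 B-cell markers made up 15 of the gated wild-type cells and 33 of the Disc1 LI/LI cells, and without them the log2 ratio of the 8 genes summed was 0.38 in place of 0.77, while that of Igkc was 6.25 in place of 4.01.

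The neutrophil gate held 116 Disc1 WT/WT cells, which had Ighm as the only member, at 57 UMIs or 85.4 CPM. The 3622 Disc1 LI/LI cells had 1663 Ighm UMIs, or 77.1 CPM, a log2 ratio of -0.15 (-0.53 to 0.26). Its sign was not stable, with 0.39 after TMM scaling, 0.85 after thinning and 0.10 without cells that passed both gates. Igkc had 0 against 2298 UMIs, at least 23.7-fold higher, Igha 0 against 127, at least 1.31-fold, and Jchain 0 against 105, at least 1.08-fold. Of the Disc1 LI/LI cells 34 had at least 3 B-cell markers, and of the Disc1 WT/WT cells 0. The lower bound of the Igkc log2 ratio was 4.57 with them, 3.79 without them and 2.04 after thinning. For Ighg1 and Ighg2b, with 0 against 41 and 49 UMIs, a difference was not detectable at the depth of the smaller library. In this gate 4.7% of 11477 genes were at least 2-fold higher and 24.4% at least 2-fold lower, and the few Disc1 WT/WT cells leave these shares imprecise.

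Without the 14 secreting cells, the 8 genes together went from 227 CPM in wild-type cells to 408, for a log2 ratio of 0.84 (0.81 to 0.88), against 3.96 (3.93 to 4.00) with them. Leaving out the cells that had 3 or more B-cell markers, which removes 12 of the 14 secreting cells, gave a log2 ratio of 0.32. The sum leans on Ighm, which held 6653 of its 7636 Disc1 WT/WT UMIs. Igkc alone had a log2 ratio of 6.53 with every cell, 2.92 (2.83 to 3.02) without the secreting cells and 6.55 without the B-marker cells. Without the secreting cells Igha stood at 5.72 (4.16 to 8.01) and Jchain at 4.85 (3.60 to 6.48). The log2 ratio of Ighm was 0.50 with every cell, -0.18 (-0.22 to -0.13) without the secreting cells and -0.57 without the B-marker cells. Its direction thus rests on these cells, and 1 plasma-cell-like cell held 4951 of the 5010 Ighm UMIs of the secreting cells. The median log2 ratio of all genes over all cells was -0.77, and TMM scaling gave 4.71 for the 8 genes together and 1.24 for Ighm. Over all cells Igkc, Igha, Ighg1, Ighg2b, Ighg2c, Ighg3 and Jchain were higher in Disc1 LI/LI under every alternative that gave a value. For Ighg2c and Ighg3 only 5 alternatives each gave one. Ighg2c had no ratio when cells needed at least 500 genes, since the cell with 170 of its 173 UMIs had 241 genes. Ighg3 had none without the B-marker cells, and neither gene had one after thinning.

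Among the related lists over all cells, where 13.8% of all genes were at least 2-fold higher in Disc1 LI/LI and 41.9% lower, 11 of 15 B-cell genes were higher by this size and 2 lower, and the 5 recombination and surrogate light chain genes were all higher. Of the other constant genes with at least 10 UMIs, 3 of 4 were higher. The 22 plasma and secretory genes were split, with 6 higher and 6 lower, and their median log2 ratio was -0.15 against -0.77 for all genes. Of the genes that transport or bind antibody, 1 was higher and 2 lower of the 3 with at least 10 UMIs. Many of these are used by other cells too, such as Xbp1 with 235 CPM outside the 8 genes in Disc1 WT/WT microglia.

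The mRNAs of proteins that carry or bind antibody were also counted. Fcgrt, the receptor that rescues IgG from breakdown, stood at 89.2 CPM outside the 8 genes in Disc1 WT/WT microglia and 98.5 in Disc1 LI/LI, and at 13.05 and 3.53 in neutrophils. Trim21, which binds antibody inside the cell, stood at 13.1 and 8.39 in microglia. Fcmr, the IgM receptor, had 64 UMIs in the 14 Disc1 WT/WT and 253 in the 149 Disc1 LI/LI B-like cells, and 2 and 3 in microglia. Pigr, which carries IgA and IgM across epithelia, had 0 UMIs in microglia and neutrophils of both libraries.

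The genes whose level across cells was most like that of the 8 genes together were B-cell genes. In Disc1 LI/LI they were Cd79a, Ly6d, Ebf1, Cd79b and Iglc3, with Pearson's r of 0.60 to 0.52 across 7817 cells. In Disc1 WT/WT they were Cd79a, Ly6d, Iglc3, Ms4a1 and Vpreb3, with r of 0.26 to 0.22 across 7032 cells. These are correlations across cells of 1 library in sparse counts, where depth is shared, and are given as a description.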

How the data were processed

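Single-cell RNA from 1 library per genotype was analysed. The authors counted UMIs with Cell Ranger (6.1.2 per the file headers) on mm10 with STAR, and deposited these counts per gene and barcode without normalization. The labels name 2 chip types and kit versions without saying which library used which, and doublets were not removed. From the counts, barcodes under 200 genes or over 10% mitochondrial UMIs were dropped. Levels (CPM) are UMIs summed over cells per 1000000 UMIs, with exact Poisson intervals, and shares have exact binomial intervals. Log2 ratios are Disc1 LI/LI over Disc1 WT/WT with 95% Clopper-Pearson intervals, and a 0 takes a floor of 3 counts per library and class. No column of the files was left unmapped. The 8 genes, gates, gene lists and alternatives were chosen with earlier results of these data known. The named genes were the 8 members, the other constant genes, the 4 genes of each list with most UMIs in secreting cells and its defining genes at 0, the leading variable genes of secreting cells, and the 5 genes per library most correlated with the members. Genes named beyond this rule, such as Xbp1, Ebf1, Tnfrsf13b, Itgam and Ptprc, the split of secreting cells at 20%, and the use of 3 markers for a gate were chosen after the values were seen. A gate for plasmacytoid dendritic cells was not used, since 3 of its 8 markers were present in 68.2% of Disc1 WT/WT microglia. Sequences and coordinates came from GENCODE vM21 (GRCm38), and protein sequences were not used here. Tools were Python 3.11.15, scipy 1.17.1, R 4.3.3 and edgeR 4.0.16 (TMM factors only). The ratio code was tested on simulated data.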

Additional observations from a re-analysis of the deposited data

How the results depend on the processing

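With 1 library per genotype, no alternative adds replicate error. A limit of 3 counts was 4.50 CPM in the whole Disc1 WT/WT neutrophil gate and 5.59 in the cells that passed this gate alone. It was 14.3 to 78.6 in cells that passed only the T-cell, NK-cell, B-cell or erythroid gate of this library. Of 56 alternatives for the 6 main values, 36 stayed within the interval of the reported value and 20 moved outside it, and none changed direction. The summed log2 ratio over all cells (3.96) was 4.71 with edgeR TMM factors, 2.47 as a mean over cells and 2.36 thinned to 1000 UMIs. Without the secreting cells (0.84) it was 1.58, 1.12 and 1.09 in the same order, and 0.47 with secreting cells set at 1%. In the microglia gate (0.77) it was 0.91, 0.69 and 0.68, 0.70 with secreting cells at 1%, and 1.04 and 0.49 with the gate at 0.25% and 1%. In the neutrophil gate (1.22) it was 1.76 with TMM. With the threshold at 1% of UMIs, 0.156% of wild-type cells and 1.497% of Disc1 LI/LI cells would count as secreting. At 10% it would be 0 wild-type cells and 10 Disc1 LI/LI cells, or 0.128%, without the B-cell-like ones. Leaving out cells with 3 or more B-cell markers, an alternative chosen after seeing the data, gave 0.32 over all cells, 0.077 without secreting cells, 0.38 in microglia and 0.70 in neutrophils. Of 198 alternatives for single genes and background counts, 36 moved. Ighm changed sign in 1 of 8 over all cells, 4 of 14 in microglia and 3 of 14 in neutrophils, from values within 0.50 of 0, and no other gene changed sign. With at least 1 or 50 UMIs per gene in place of 10, 1370 and 244 genes of the microglia gate were higher (631), and 847 and 384 lower (768). In the neutrophil gate, 3460 and 1695 were lower (2798). No paired analysis was possible because each genotype has 1 library and no test was made.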

Other observations

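Neutrophils held heavy-chain variable UMIs with few or no kappa variable UMIs beside them. In 3430 Disc1 LI/LI cells of the neutrophil gate alone, 139 Ighv UMIs were found in 131 cells, or 3.82% (3.20 to 4.52), against 4 Igkv UMIs. Ighv1-64 had 52 UMIs in 50 cells and Ighv8-10 had 45 in 43 cells, at most 2 UMIs per cell. Of 103 Disc1 WT/WT neutrophils, 2 held an Ighv UMI, or 1.94% (0.236 to 6.84), with 0 Igkv UMIs. This interval contains the Disc1 LI/LI share, and the 2 UMIs were 1 of Ighv1-64 and 1 of Ighv8-10. Neither gene led in a secreting cell, where Ighv1-64 had 1 UMI in all and Ighv8-10 had 0, and microglia had 0 and 1 UMI of them in Disc1 LI/LI and 0 of both in Disc1 WT/WT. The 149 Disc1 LI/LI B-like cells had 44 Ighv UMIs over 27 genes, led by Ighv6-3 with 5. These genes were chosen after their values were seen, and how they come to be counted in neutrophils was not tested.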
